A study of Drosophila melanogaster with 12 samples.

Results

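Odorant-binding protein genes were followed in the testis of Drosophila melanogaster across 2 genotypes that lack su(Hw) function and 2 stocks that keep it. The family was taken as every gene whose only symbol in the array's annotation is Obp followed by a digit, with 1 probe set for each gene, the one with the highest mean log2 signal over the 12 arrays. This gave 47 genes, out of 11982 genes named on the array in the same way. RNA from testes of 3-day-old males was hybridised to 12 arrays (Affymetrix Drosophila Genome 2.0), 3 per genotype, each from a sample of about 100 pairs of testes.

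The null genotype A2663/2 has su(Hw) allele A2663 over allele 2, in flies that carry y[1] with w[67c23] and, on the A2663 chromosome, the insertion P{EPgy2}Amt[EY02782]. The null genotype 2/v has su(Hw) allele 2 over allele v, in flies that carry y[1] with w[67c23] and also ct[6] with f[1]. BL15598 carries y[1] with w[67c23] and the insertion P{EPgy2}Amt[EY02782], but no su(Hw) mutation in its label. Canton S is a laboratory wild type with none of these alleles in its label. Both nulls carry allele 2, A2663/2 shares its y, w and Amt alleles with BL15598, and the ct and f alleles are in 2/v alone. All samples went through 1 amplification protocol that started from 50 ng of RNA. Su(Hw) is a DNA-binding protein with zinc fingers that is needed for the insulator of the gypsy retrotransposon and is also known as a repressor, and the series asks which testis transcripts differ when it is missing.

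Odorant-binding proteins are small secreted proteins whose fold, held by disulfide bonds, encloses a pocket for a hydrophobic ligand. They are best known from the fluid around olfactory and taste neurons, where they bind odorants and tastants. Members are also made outside sense organs, among them the male accessory gland and ejaculatory bulb, which put them into seminal fluid, and the fat body and glia. The Plus-C members carry extra conserved cysteines, and the dimer members hold 2 such domains in a row. In bulk tissue, fewer cells of a type and less RNA per cell cannot be told apart.

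su(Hw) itself had signals of 64.0, 56.7 and 89.6 in A2663/2 testes and 38.7, 19.2 and 70.0 in 2/v testes, against 1409.8, 1544 and 1223 in BL15598 testes and 864, 885 and 1205 in Canton S testes. The nulls and the wild types did not overlap (limma log2 change -4.52, SE 0.283, adjusted p = 1.04e-05). All 13 measured germline markers of the testis lay above the control level on all 12 arrays, and 3 of them were called higher in the nulls (zpg, can and dj, log2 changes 0.68, 0.43 and 0.51) and 0 lower. Of 8 hemocyte markers, srp alone was called (higher, 0.58), and of 4 muscle markers, Tm2 alone (lower, -0.51). Over all probe sets, 8.87% were called higher and 4.6% lower, nulls against wild types. The part of such shifts in the family's changes was not tested. The control level, 20.4, is the median signal of the array's 183 control probe sets over all arrays. Array medians ran from 190.2 to 242 with the control probe sets included. The other 18769 probe sets were those tested. The summed signal of 16 accessory gland markers ran from 60012 to 104707 in A2663/2, 52185 to 110376 in 2/v, 36881 to 79582 in BL15598 and 36667 to 76744 in Canton S. Accessory gland transcripts were thus measured in every sample.

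Odorant-binding protein genes were dim in testis as a family, but a few were among its bright transcripts. The median of all signals of the 47 genes over the 12 arrays was 113, against 580.2 over all named genes. On all 12 arrays, 29 of the 47 genes lay above the control level, whereas 82.3% of named genes did. Another 13 genes were above it on all arrays of at least 1 genotype only, 5 were so in no genotype, and 0 were below it on every array. At a stricter level, the 75th percentile of the control probe sets (60.6), 19 genes were above on all 12 arrays and 7 on none.

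**Figure D1:**
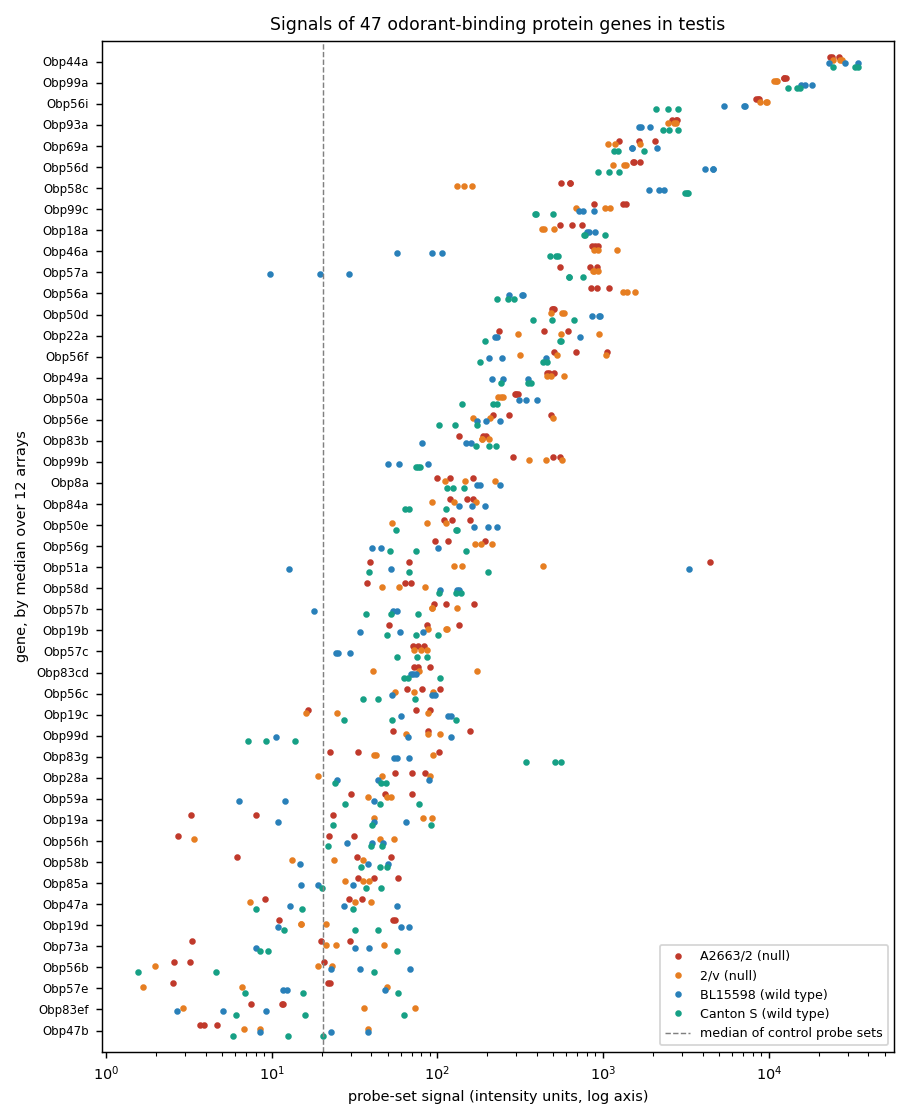
Probe-set signal (intensity units, log axis) of the 47 odorant-binding protein genes, ordered by their median over the 12 arrays, with 1 point per array coloured by genotype and the control level of 20.4 as a dashed line. The 2 brightest genes, Obp44a and Obp99a, stay above the rest on every array, and the dimmest straddle the dashed line.

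The brightest member was Obp44a, known in glia and hemolymph, with signals of 23489.5, 26421 and 24155 in A2663/2 testes and 26903, 24528 and 27867 in 2/v testes, against 22999.6, 28921 and 34759.5 in BL15598 testes and 34562, 33096 and 24543 in Canton S testes. These ranges overlapped, and limma called no difference in any of the 8 comparisons (null against wild type log2 change -0.21, SE 0.125, adjusted p = 0.348). Obp99a was the next brightest and stood at 12314, 12389 and 12789.5 in A2663/2 testes and 11267, 11050.2 and 10779.6 in 2/v testes, against 15729, 16629 and 18265 in BL15598 testes and 14721, 15511 and 13158 in Canton S testes. Its nulls lay below both wild types with no overlap (log2 change -0.41, SE 0.071, adjusted p = 0.0044), a 1.33-fold lower level. Obp69a, known from the antenna, held a high and even level of 1248, 2051 and 1641 in A2663/2 testes and 1178, 1078 and 1669 in 2/v testes, against 1499.6, 1491 and 2127 in BL15598 testes and 1224, 1159.5 and 1759.8 in Canton S testes, and was called in none of the 8 comparisons.

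Nulls against wild types, 18 of the 47 genes passed the test, 12 higher and 6 lower in the nulls. The share of 38.3% stands against 13.5% of all probe sets called in this comparison, 8.87% higher and 4.6% lower. The 12 that rose were Obp46a, Obp49a, Obp56a, Obp56g, Obp56i, Obp57a, Obp57b, Obp57c, Obp93a, Obp99b, Obp99c and Obp99d, and the 6 that fell were Obp18a, Obp56d, Obp58c, Obp58d, Obp83g and Obp99a. A gene was called at an adjusted p under 0.05 from limma over all 18769 probe sets, and 21 of the 47 had an unadjusted p under 0.05. The median log2 change was 0.20 over the family, against 0.05 over all probe sets. Centring each array on its own median moved the median over all probe sets to -0.12 and its share of higher calls to 37.1%, against 65.8% as deposited, while the family then had 10 genes higher and 7 lower.

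Fewer genes passed when genotype was ignored. In a fit that compares the 6 null arrays with the 6 wild-type arrays and ignores genotype, 10 of the 47 passed, 6 higher and 4 lower, where 7.46% of all probe sets passed, 5.15% higher and 2.31% lower. The 6 null arrays and the 6 wild-type arrays did not overlap for 10 genes either, 6 higher (4.43% of all probe sets) and 4 lower (1.98%), where 6.41% of all probe sets did not. In each of the 4 pairings of a null with a wild type, only Obp99b, Obp56a and Obp46a were called higher every time and only Obp58c lower every time. These 4 genes are 8.51% of the family, against 2.05% of all probe sets (1.52% higher and 0.527% lower) and 2.44% of named genes. The pairings share arrays, so they are not independent of each other. With arrays centred on their medians or quantile normalized, the calls in all 4 pairings were 2 higher and 2 lower, with Obp58d in and Obp46a out.

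**Figure D2:**
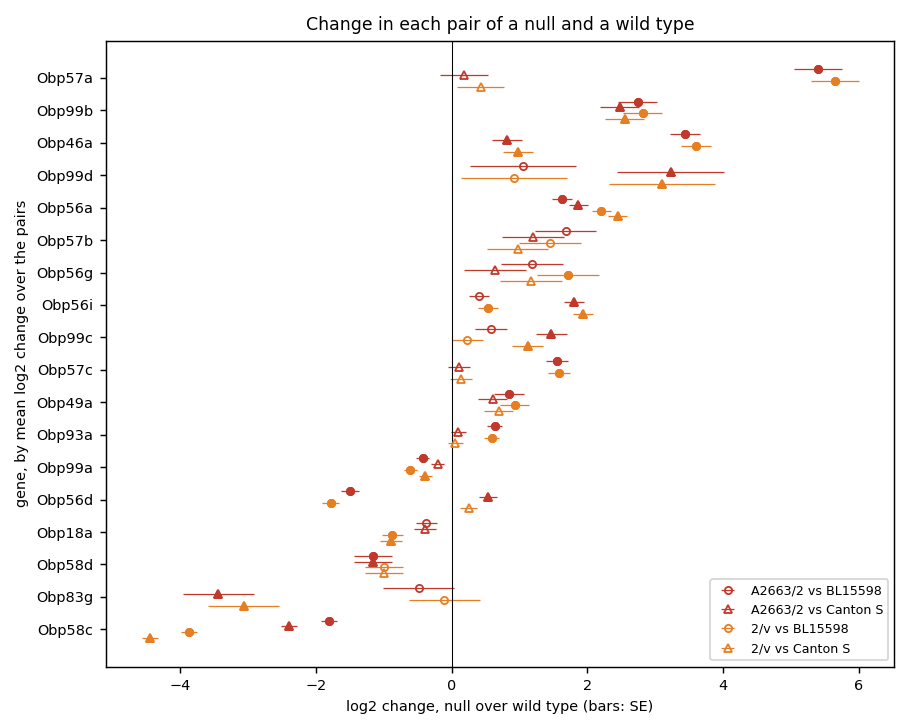
Log2 change, null over wild type, for the 18 genes called nulls against wild types, with 1 row per gene, a point for each of the 4 pairings of a null with a wild type and bars of 1 SE; filled points are those called at an adjusted p under 0.05. Obp99b, Obp56a, Obp46a and Obp58c have 4 filled points on 1 side of 0, whereas Obp57a spans 0.18 to 5.65.

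Obp99b, known from the fat body of adult males, rose by similar amounts in all 4 pairings. Its signals were 549, 284 and 500.0 in A2663/2 testes and 562, 451 and 358 in 2/v testes, against 87.6, 58.8 and 50.6 in BL15598 testes and 79.0, 76.8 and 74.6 in Canton S testes. Every null array lay above every wild-type array, and the nulls were 6.26-fold higher (log2 change 2.65, SE 0.203, adjusted p = 3.42e-05). Over the 4 pairings its log2 change ran only from 2.48 in A2663/2 against Canton S to 2.81 in 2/v against BL15598. Of 8 measured fat body markers, 3 were also called higher in the nulls and 0 lower, with a median log2 change of 0.07 over the 8. Over all probe sets, 8.87% were called higher and 4.6% lower. Lsp2, a larval storage protein gene, stood at 342, 337 and 417 in A2663/2 testes and 531, 459 and 424 in 2/v testes, against 242, 252 and 376 in BL15598 testes and 184, 227 and 246 in Canton S testes. Fbp1, a storage protein receptor, and Fbp2 were the others, with log2 changes of 2.38 and 0.82. The 5 markers not called went both ways. Mtp (log2 change -0.55, limma adjusted p = 0.0502), Yp3 (-0.33) and Yp2 (-0.04) were lower, and Yp1 and apolpp were each at 0.07. The summed signal of the 8 markers, mostly apolpp, ran from 10005 to 11430.3 in A2663/2 and 10987 to 11319.5 in 2/v, against 9082 to 12577 in BL15598 and 9748 to 11771 in Canton S, and none of the 8 was below the control level on every array. The part of fat body RNA in the rise of Obp99b was not tested.

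Obp56a rose in both nulls, further in 2/v. It gave 851, 923 and 1086 in A2663/2 testes and 1552, 1318 and 1388 in 2/v testes, against 325, 272 and 328 in BL15598 testes and 228, 265 and 291 in Canton S testes. The nulls were 4.10-fold higher with no overlap (log2 change 2.04, SE 0.101, adjusted p = 3.01e-06), and all 3 arrays of 2/v were above all 3 of A2663/2. The direct comparison of 2/v with A2663/2 did not pass (log2 change 0.58, SE 0.143, adjusted p = 0.154).

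Obp46a, a Plus-C member, was nearly level between the nulls and stood apart in BL15598. Its signals were 894, 862 and 937 in A2663/2 testes and 879.7, 937 and 1212 in 2/v testes, against 56.7, 93.4 and 106 in BL15598 testes and 519, 479.5 and 533 in Canton S testes. Against BL15598 it rose 10.9-fold in A2663/2 and 12.1-fold in 2/v, but against Canton S only 1.76-fold and 1.96-fold. The rise of A2663/2 over Canton S is marginal (adjusted p = 0.0496) and was lost in 10 of the 12 fits that leave out a single array, all but those without BL15598 replicate 1 or 3, with an adjusted p of up to 0.141. The rise of 2/v over Canton S (adjusted p = 0.0207) was lost without 2/v replicate 2 or 3 or without Canton S replicate 1 or 2, at up to 0.079.

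Obp58c, another Plus-C member, had the greatest fall of the family. It stood at 561, 629 and 633 in A2663/2 testes and 131, 144 and 162 in 2/v testes, against 2330.2, 2175 and 1903 in BL15598 testes and 3114, 3238 and 3211 in Canton S testes. The nulls were 8.77-fold lower (log2 change -3.13, SE 0.0841, adjusted p = 2.90e-07), and the 4 genotypes did not overlap at all. The fall was 3.51-fold in A2663/2 against BL15598 and 21.9-fold in 2/v against Canton S. It was also the only member called between the nulls, at 4.17-fold lower in 2/v than in A2663/2 (log2 change -2.06, SE 0.119, adjusted p = 8.32e-05), where 0.927% of probe sets were called, 0.575% lower and 0.352% higher.

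**Figure D3:**
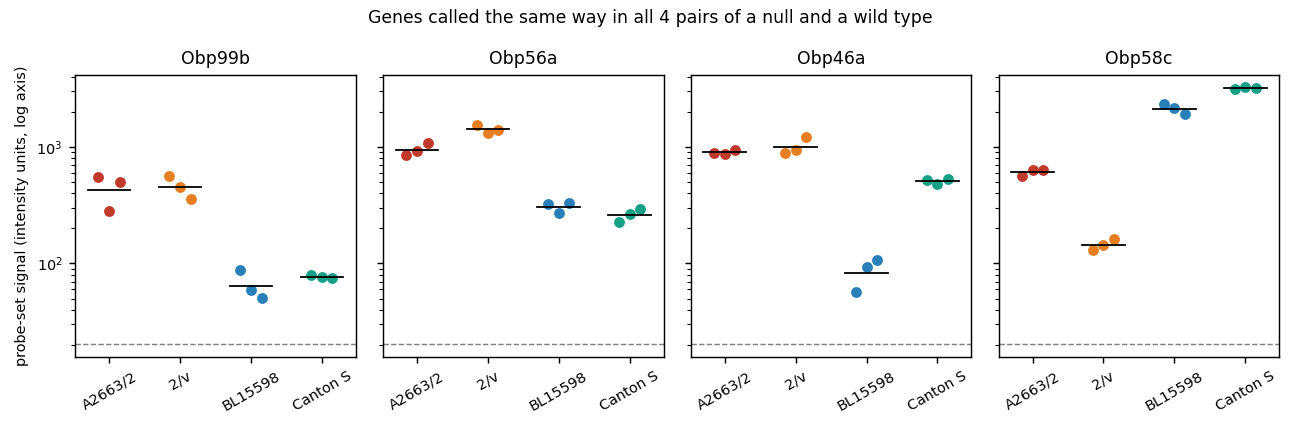
Probe-set signal (intensity units, log axis) on each of 3 arrays per genotype for the 4 genes called the same way in all 4 pairings of a null with a wild type; short lines are geometric means and the dashed line is the control level of 20.4. Obp58c falls in steps, with 2/v at 131, 144 and 162, and Obp46a is lowest in BL15598.

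The genes beside these 4 were called about as often as probe sets in general, 2 of 16 (12.5%) against 13.5%. In RefSeq gene order, with the 2 nearest measured genes taken on each side, 0 of 4 neighbours of Obp46a and 0 of 4 of Obp56a were called nulls against wild types (limma; 1 of 4 each at an unadjusted p under 0.05). Beside Obp58c, 1 of 4 was called, its direct neighbour Obp58d, and beside Obp99b 1 of 4, Obp99d, with 2 of 4 each at an unadjusted p under 0.05. Obp58d, also Plus-C, had 37.8, 63.4 and 68.8 in A2663/2 testes and 84.6, 58.4 and 46.2 in 2/v testes, against 104, 131 and 135 in BL15598 testes and 129, 102 and 139 in Canton S testes. It was 2.11-fold lower, without overlap (log2 change -1.08, SE 0.198, adjusted p = 0.006). Its pairings passed for A2663/2 against BL15598 (adjusted p = 0.0383) and against Canton S (adjusted p = 0.0312), but not for 2/v (adjusted p = 0.0508 and 0.0524). The call against BL15598 was lost without any 1 array of that pairing, 2/v replicate 2 or Canton S replicate 1 or 3, at up to 0.114. The call against Canton S was lost without A2663/2 replicate 1 or 2, 2/v replicate 2 or Canton S replicate 1 or 3, at up to 0.0957.

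The 2 pairings that share no array were also read side by side. A2663/2 against BL15598, the stock with its markers, called 12 genes, 7 higher and 5 lower, where it called 6.83% of all probe sets, 4.36% higher and 2.46% lower. 2/v against Canton S called 10 genes, 6 higher and 4 lower, where it called 10.4%, 6.84% higher and 3.59% lower. In the crossed pairings, A2663/2 against Canton S called 7 genes higher and 3 lower (9.21% of all probe sets, 6.36% higher and 2.85% lower), and 2/v against BL15598 called 9 higher and 5 lower (10.6%, 6.25% higher and 4.38% lower). The effects of the nulls in these pairings differed by an interaction test for 6 genes, against 4.07% of probe sets. The effect was more positive in 2/v for Obp56d and Obp56i (2.16% of probe sets) and more negative for Obp46a, Obp57a, Obp57c and Obp58c (1.9%). Only Obp58c among them was also called between the nulls themselves.

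The stocks were the other large source of variation in the family. BL15598 against Canton S, 11 of the 47 genes were called, 5 higher and 6 lower in BL15598, against 9.58% of all probe sets, 5.43% higher and 4.16% lower. The higher genes were Obp50a, Obp50d, Obp56d, Obp56i and Obp99c, and the lower were Obp46a, Obp57a, Obp57c, Obp58c, Obp83g and Obp93a. Fitted on these 6 arrays alone, 6 of the 11 passed. That fit has fewer arrays to estimate the spread, and its share over all probe sets is not given. The Obp99c call (adjusted p = 0.0407) was lost without any single array other than A2663/2 replicate 2 or 2/v replicate 1 or 3, at up to 0.126.

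Obp57a was near the control level in BL15598 and bright elsewhere. It gave 923, 553 and 835 in A2663/2 testes and 932, 866 and 877 in 2/v testes, against 19.7, 29.2 and 9.78 in BL15598 testes and 758, 624 and 619 in Canton S testes. It was at least 36.8-fold higher in A2663/2 and at least 43.6-fold higher in 2/v than in BL15598 (adjusted p = 2.77e-05 and 1.13e-05), with BL15598 set at the control level. Against Canton S the log2 changes were 0.18 and 0.42, neither called. BL15598 was at least 32.5-fold lower than Canton S (log2 change -5.22, SE 0.35, adjusted p = 1.72e-05).

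Obp57a lies in a run with Obp57b and Obp57c. Obp57c repeated the pattern at a lower level, with 83.4, 76.6 and 71.5 in A2663/2 testes and 79.2, 71.9 and 86.4 in 2/v testes, against 29.7, 24.4 and 25.0 in BL15598 testes and 74.8, 86.5 and 57.3 in Canton S testes. BL15598 was 2.73-fold lower than Canton S (log2 change -1.45, SE 0.163, adjusted p = 4.62e-04), while the nulls overlapped Canton S. Obp57b differed, with 95.2, 166 and 113 in A2663/2 testes and 130.4, 92.8 and 92.6 in 2/v testes, against 17.9, 53.6 and 57.1 in BL15598 testes and 76.3, 52.7 and 36.9 in Canton S testes. There the nulls lay above both wild types (log2 change 1.33, SE 0.321, adjusted p = 0.0232), and no single pairing passed. Its call was lost without A2663/2 replicate 2, 2/v replicate 1 or Canton S replicate 3, at an adjusted p of up to 0.0589.

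Obp56d, known from chemosensory organs of the head, was highest in BL15598. Its signals were 1527, 1514 and 1667 in A2663/2 testes and 1339.8, 1375 and 1156 in 2/v testes, against 4627, 4602 and 4112 in BL15598 testes and 1239.6, 1087 and 938 in Canton S testes. BL15598 was 4.11-fold higher than Canton S (log2 change 2.04, SE 0.128, adjusted p = 1.26e-05), and the nulls were lower than BL15598 but not lower than Canton S. Nulls against both wild types it was called lower (log2 change -0.63), but not in the fit that ignores genotype. Against Canton S, A2663/2 was higher by 0.54 log2 (adjusted p = 0.0298), a call lost without any 1 of the A2663/2 arrays or Canton S replicate 2 or 3, at up to 0.11.

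Obp93a, a bright Plus-C member, gave 2767, 2592 and 2777 in A2663/2 testes and 2662.97, 2470.1 and 2758 in 2/v testes, against 1913, 1684 and 1651 in BL15598 testes and 2505, 2315 and 2819.9 in Canton S testes. It was lowest in BL15598, by 1.45-fold against Canton S (adjusted p = 0.0137, or 0.0523 without BL15598 replicate 2), and its log2 changes against Canton S were 0.09 in A2663/2 and 0.05 in 2/v, neither called. Obp50d, also Plus-C, was highest in BL15598, with 499, 491 and 506 in A2663/2 testes and 488, 579 and 564 in 2/v testes, against 956, 857 and 939 in BL15598 testes and 666, 379.8 and 491 in Canton S testes. It was lower than BL15598 in both nulls (adjusted p = 0.019 for A2663/2 and 0.0274 for 2/v), but the 2/v call was lost without any 1 of its 6 arrays, at up to 0.0965, and the A2663/2 call without any 1 of the A2663/2 arrays or BL15598 replicate 1 or 3, at up to 0.064. Obp50a and Obp50e were on the same side, with BL15598 above the other 9 arrays. Obp50a read 299, 296 and 307 in A2663/2 testes and 249.9, 231 and 242 in 2/v testes, against 344, 398 and 312 in BL15598 testes and 141, 216 and 229 in Canton S testes, and BL15598 exceeded Canton S (log2 change 0.87, SE 0.178, adjusted p = 0.0136; 0.0536 without BL15598 replicate 2). Obp50e read 122, 109 and 158 in A2663/2 testes and 53.4, 113 and 86.0 in 2/v testes, against 203, 167 and 229.9 in BL15598 testes and 130.4, 56.1 and 131 in Canton S testes and was called in no comparison.

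Canton S stood apart for other members. Obp83g, which lies beside the dimer genes, gave 33.3, 22.4 and 102 in A2663/2 testes and 42.8, 41.4 and 93.6 in 2/v testes, against 54.3, 57.3 and 67.3 in BL15598 testes and 342, 561 and 511 in Canton S testes. Only Canton S was bright, and it was 7.76-fold lower in BL15598 than in Canton S (log2 change -2.96, SE 0.524, adjusted p = 0.00657), 10.9-fold lower in A2663/2 and 8.39-fold lower in 2/v. Against BL15598 the nulls were not called. Obp99c had the lowest arrays in Canton S, at 1382, 877 and 1321 in A2663/2 testes and 1098, 1031 and 685 in 2/v testes, against 721, 884 and 754 in BL15598 testes and 391, 496 and 389.6 in Canton S testes. It was 2.77-fold higher in A2663/2 and 2.17-fold higher in 2/v than in Canton S. The 2/v call had an adjusted p of 0.0132, and up to 0.0545 without 2/v replicate 1 or 2. Both nulls overlapped BL15598, and neither was called against it. The Obp99c call against both wild types was lost with genotype ignored (limma adjusted p = 0.0647).

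Obp99d had Canton S below the control level, with 158, 88.3 and 54.1 in A2663/2 testes and 103, 87.5 and 64.6 in 2/v testes, against 121, 66.5 and 10.7 in BL15598 testes and 13.9, 7.16 and 9.29 in Canton S testes. It was at least 4.46-fold higher in A2663/2 and at least 4.09-fold higher in 2/v than in Canton S (adjusted p = 0.0317 and 0.0341). Either call was lost without any 1 array of its pairing, the first also without 2/v replicate 2 and the other without A2663/2 replicate 2, at up to 0.116 and 0.105. The nulls overlapped BL15598, and the call against both wild types (adjusted p = 0.0354) was lost without A2663/2 replicate 1 or 2, any 1 of the 2/v arrays or Canton S replicate 2 or 3, at up to 0.0854. Obp18a, which is in none of the role lists, was lowest in 2/v, at 751, 551 and 650.0 in A2663/2 testes and 441, 427 and 504 in 2/v testes, against 819, 799 and 898 in BL15598 testes and 1023, 777 and 766 in Canton S testes. The nulls were 1.55-fold lower (log2 change -0.64, SE 0.11, adjusted p = 0.00446), with 1.86-fold in 2/v against Canton S (adjusted p = 0.00562) and 1.30-fold in A2663/2 against BL15598, which was not called (adjusted p = 0.221).

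**Figure D4:**
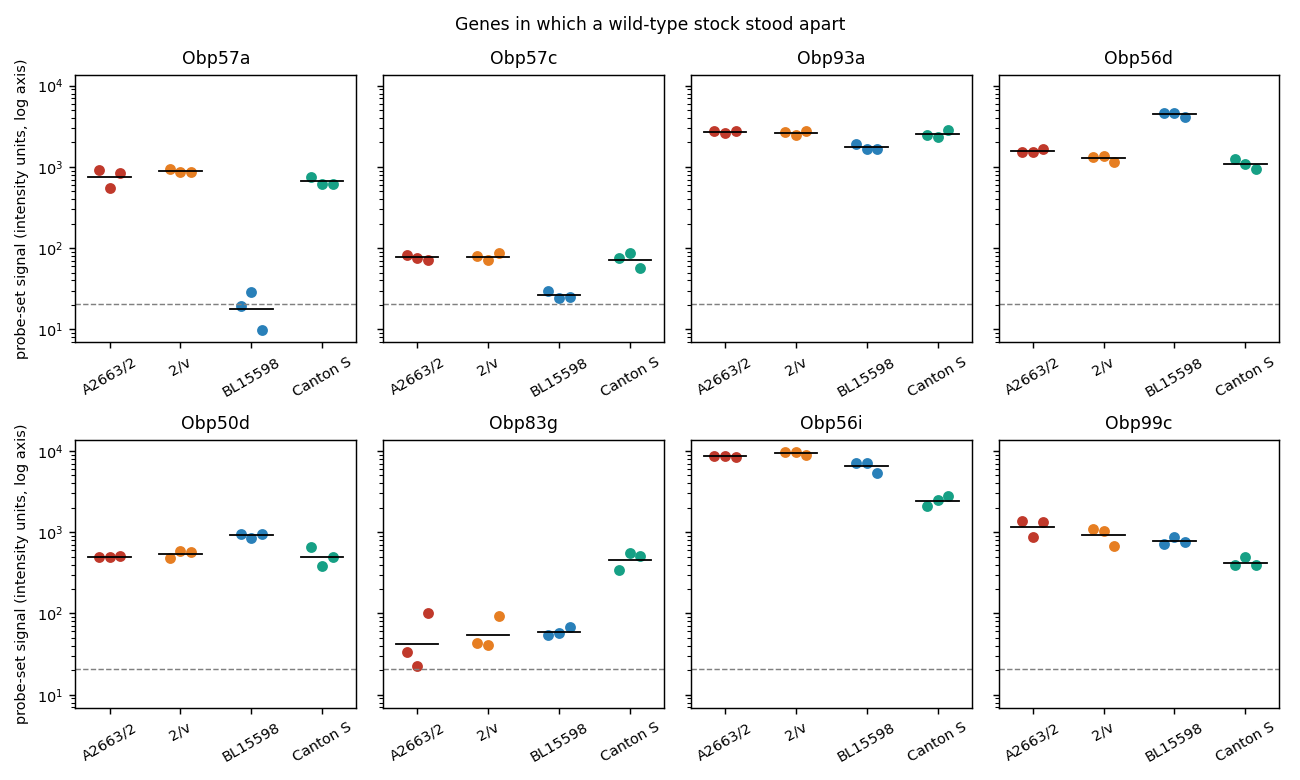
Probe-set signal (intensity units, log axis) per array for 8 genes in which the arrays of a wild-type stock stood apart from the other 9; short lines are geometric means of 3 arrays and the dashed line is the control level of 20.4. BL15598 is low for Obp57a, Obp57c and Obp93a and high for Obp56d and Obp50d, and Canton S is high for Obp83g and low for Obp56i and Obp99c.

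Counted over the family with a rule chosen after the values were seen, BL15598 arrays lay above the other 9 for 5 members (3.95% of all probe sets did) and below them for 4 (3.9%). Canton S lay above for 2 (3.54%) and below for 3 (5.13%). For 2/v the counts were 2 above (2.9%) and 3 below (1.97%), and for A2663/2 they were 0 above (1.38%) and 1 below (0.81%). The member below in A2663/2 was Obp47b, whose arrays there were at or under 4.66, below the control level.

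Seminal fluid members were led by Obp56i. It stood at 8755, 8594 and 8329 in A2663/2 testes and 9583, 9713 and 8859 in 2/v testes, against 7201, 7052 and 5378 in BL15598 testes and 2090.1, 2474 and 2818 in Canton S testes. Nulls and wild types did not overlap (log2 change 1.17, SE 0.103, adjusted p = 8.00e-05), but most of the difference was to Canton S, at 3.50-fold in A2663/2 and 3.84-fold in 2/v. Against BL15598 the log2 changes were 0.40 in A2663/2, not called, and 0.53 in 2/v (adjusted p = 0.0483), lost without any single array other than Canton S replicate 1 or 3, at up to 0.135.

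Obp56g, made in the ejaculatory bulb and known for its part in the mating plug, gave 96.9, 116 and 194 in A2663/2 testes and 168, 215 and 182 in 2/v testes, against 40.5, 45.8 and 100.2 in BL15598 testes and 149.8, 51.9 and 74.2 in Canton S testes. Its rise is weak, since the groups overlapped (log2 change 1.18, SE 0.321, adjusted p = 0.0385). The call was lost in 9 of 12 fits without a single array, at up to 0.0895, and held without A2663/2 replicate 1, BL15598 replicate 3 or Canton S replicate 1. Of the 7 seminal fluid members, 2 were called higher, 0 lower and 5 not, where 8.87% of all probe sets were called higher and 4.6% lower. Their median log2 change was 1.04, against 0.05 over all probe sets.

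The other 5 were not called. Obp56e gave 217, 271 and 484 in A2663/2 testes and 500.0, 208 and 165 in 2/v testes, against 239, 172 and 195 in BL15598 testes and 102, 173 and 127 in Canton S testes, and its neighbour Obp56f gave 682, 504 and 1058 in A2663/2 testes and 1049, 525 and 314 in 2/v testes, against 452, 205 and 246 in BL15598 testes and 181, 457 and 436 in Canton S testes. For both, A2663/2 replicate 3 and 2/v replicate 1 were the highest arrays, and these also had the highest accessory gland sums, at 104707 and 110376. Obp22a gave 441, 236 and 612 in A2663/2 testes and 951, 557 and 305 in 2/v testes, against 730.3, 224 and 229 in BL15598 testes and 195, 560.3 and 552 in Canton S testes. Obp8a, with 164, 99.1 and 119.7 in A2663/2 testes and 147, 111 and 223 in 2/v testes, against 237, 179.7 and 173 in BL15598 testes and 124, 145 and 114 in Canton S testes, spread less. None of these was called in any comparison, and over the accessory gland list 0 of 16 markers were called nulls against wild types (limma; 1 had an unadjusted p under 0.05). Their median log2 change was 0.69. The part of accessory gland RNA in the levels of these members was not tested.

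Obp51a was decided by single arrays. It read 4421, 39.2 and 67.5 in A2663/2 testes and 126, 141 and 435 in 2/v testes, against 3312, 12.7 and 52.2 in BL15598 testes and 67.2, 38.5 and 201 in Canton S testes. A2663/2 replicate 1 and BL15598 replicate 1 were far above the rest, and no comparison was called. Dup99B, a peptide gene of the ejaculatory duct that lies next to Obp99b, was high on the same arrays, at 3477, 5.39 and 65.9 in A2663/2 testes and 108, 106 and 267 in 2/v testes, against 4512, 35.1 and 81.7 in BL15598 testes and 279.6, 24.2 and 317 in Canton S testes. Without these arrays, an alternative chosen after the values were seen, 16 genes were called nulls against wild types, and Obp83g, with an adjusted p of up to 0.17 over the alternatives, was no longer among them.

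**Figure D5:**
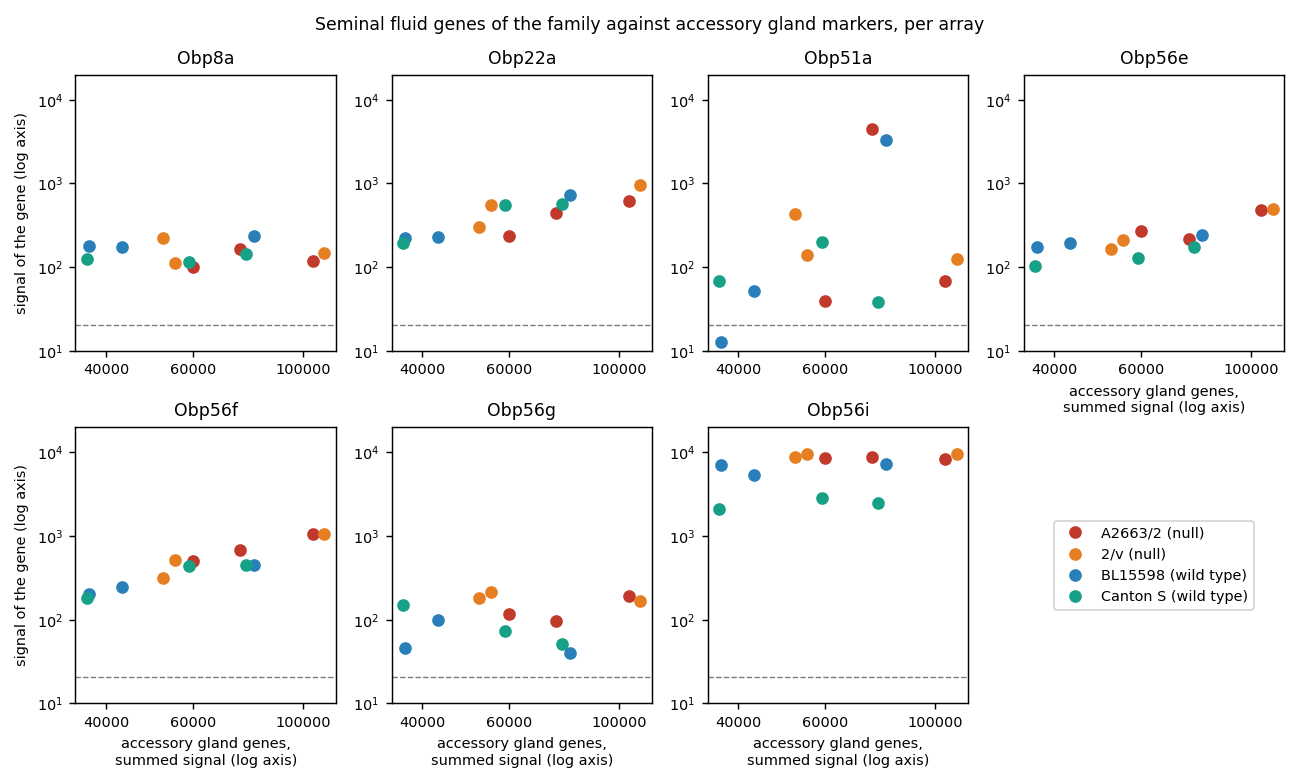
Signal of the 7 seminal fluid members (intensity units, log axis) against the summed signal of 16 accessory gland markers on the same array (intensity units, log axis), 1 point per array coloured by genotype, with the control level of 20.4 as a dashed line. The highest arrays of Obp56e and Obp56f are those with the highest sums, 2 arrays of Obp51a lie far above the other 10, and Obp56i separates by genotype with Canton S lowest.

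Of 9 measured antennal members, 1 was called higher in the nulls (Obp99d), 0 lower and 8 not, where 8.87% of all probe sets were called higher and 4.6% lower. Obp83b, in the antenna with its neighbour Obp83a, had 196, 189 and 134 in A2663/2 testes and 204, 187 and 186 in 2/v testes, against 159.7, 149 and 80.5 in BL15598 testes and 170.3, 227 and 206 in Canton S testes, and Obp84a had 163, 119 and 152 in A2663/2 testes and 126, 93.0 and 172 in 2/v testes, against 161, 135 and 194 in BL15598 testes and 113, 67.6 and 63.5 in Canton S testes. Neither was called in any comparison. Antennal markers differed in level, from nompA, above the control level on 9 of 12 arrays, to Ir25a, which ran from 197 to 597. Orco, the shared coreceptor of odorant receptors, stood at 196, 95.5 and 127 in A2663/2 testes and 161, 33.9 and 76.0 in 2/v testes, against 92.2, 81.5 and 133 in BL15598 testes and 146, 136 and 147 in Canton S testes. Of 6 antennal markers, 0 were called (limma; 0 at an unadjusted p under 0.05).

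Of 7 members listed for taste or mating behaviour, 4 rose (Obp49a, Obp57a, Obp57b and Obp57c), 0 fell and 3 were not called, where 8.87% of all probe sets rose. Against BL15598, 3 of the 7 (Obp49a, Obp57a and Obp57c) were called higher in A2663/2, where 4.36% of all probe sets were. The same 3 were called higher in 2/v, where 6.25% of all probe sets were. Against Canton S, limma called 0 of 7 in A2663/2 (2 at an unadjusted p under 0.05), where 9.21% of all probe sets were called. In 2/v it called 0 of 7 (1 at that level), where 10.4% of all probe sets were called. Obp49a, a Plus-C protein of taste hairs that takes part in the suppression of sweet taste by bitter compounds, gave 506, 471 and 459 in A2663/2 testes and 584, 461 and 484 in 2/v testes, against 354, 214 and 249 in BL15598 testes and 240.4, 353 and 365 in Canton S testes. It was 1.70-fold higher in the nulls with no overlap (log2 change 0.77, SE 0.153, adjusted p = 0.00913). Of its pairings, those with BL15598 passed (adjusted p = 0.0491 for A2663/2 and 0.0243 for 2/v), but the A2663/2 call was lost without any single array other than BL15598 replicate 1 or Canton S replicate 1, at up to 0.148. The 2/v call was lost without any 1 of the 2/v arrays or BL15598 replicate 2 or 3, at up to 0.0877. Obp19b, at 135, 50.8 and 86.1 in A2663/2 testes and 113, 114 and 87.3 in 2/v testes, against 59.1, 81.4 and 34.0 in BL15598 testes and 101, 49.8 and 74.3 in Canton S testes, was not called.

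Of 14 measured genes with other roles in odorant reception, 3 were called higher and 0 lower, where 8.87% of all probe sets were called higher and 4.6% lower. Among the 14, Or22b alone was called higher in all 4 pairings, as were 1.52% of all probe sets. Or22b, an odorant receptor, stood at 779, 425 and 819.8 in A2663/2 testes and 1305, 764 and 883 in 2/v testes, against 3.19, 2.56 and 10.5 in BL15598 testes and 5.97, 51.7 and 37.7 in Canton S testes. CheA29a and CheA75a, of a family of secreted proteins known from pheromone-sensing taste hairs, were the others, and CheA29a had a log2 change of 1.18. CheA75a stayed around or below the control level, at 11.4, 32.9 and 24.5 in A2663/2 testes and 27.8, 32.4 and 28.1 in 2/v testes, against 2.19, 4.28 and 10.6 in BL15598 testes and 2.01, 4.38 and 3.61 in Canton S testes, so no fold is given.

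By structural class, 3 of 11 measured Plus-C members were called higher in the nulls (Obp46a, Obp49a and Obp93a), 2 lower (Obp58c and Obp58d) and 6 not. Over all probe sets, 8.87% were called higher and 4.6% lower. The median log2 change of the Plus-C members was -0.38. Neither of the 2 dimer members was called. Obp83cd gave 76.4, 89.7 and 72.6 in A2663/2 testes and 174, 77.7 and 40.6 in 2/v testes, against 74.0, 71.0 and 69.0 in BL15598 testes and 66.8, 62.7 and 104 in Canton S testes, and Obp83ef was within 2.70 to 73.6. Of the 4 fat body, hemolymph or glia members, Obp99b and Obp99c were called higher, Obp99a lower and Obp44a not, against the same shares of all probe sets. Glial markers stood beside Obp44a as follows: repo ran from 19.8 to 71.4 and alrm from 3.72 to 35.2, near the control level. The other markers were bright, with moody from 1013 to 1977 and Gs2 from 1626 to 2825. Of 4 glial markers 0 were called (limma; 0 at an unadjusted p under 0.05).

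Runs of neighbouring family members differed in how far their members moved alike. All 3 of Obp57a, Obp57b and Obp57c were called higher, nulls against wild types, but their patterns differed. Obp57a and Obp57c were low in BL15598 alone, were not called against Canton S and did not pass with genotype ignored. For Obp57b the nulls lay above both wild types, and no single pairing passed. Obp50a and Obp50d, of another run, both had the BL15598 arrays above the other 9. The probe sets shared by Obp50b and Obp50c, which lie between them, did not. In the run Obp56a, Obp56b, Obp56c and Obp56d, Obp56a rose, Obp56d was set apart in BL15598, Obp56b stayed within 1.55 to 68.7, and Obp56c, at 65.3, 81.0 and 103 in A2663/2 testes and 55.6, 72.4 and 93.6 in 2/v testes, against 53.0, 96.9 and 93.0 in BL15598 testes and 44.0, 72.9 and 35.8 in Canton S testes, was not called. In the run Obp59a, Obp58b, Obp58c and Obp58d, only the last 2 were called. In the run Obp83cd, Obp83ef and Obp83g, only Obp83g was called, and in the run Obp19a, Obp19b, Obp19c and Obp19d, none was (limma; 0 of 4 at an unadjusted p under 0.05, nulls against wild types).

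The other 12 members were dim and called in no comparison. Obp28a, an antennal gene, ran from 19.0 to 90.2, Obp19a from 3.23 to 92.2, Obp19d from 10.9 to 67.1 and Obp59a from 6.39 to 77.9. Obp19c ran from 16.1 to 129, Obp56h from 2.70 to 55.0, Obp58b from 6.15 to 52.5 and Obp85a from 15.04 to 57.6. Obp47a ran from 7.34 to 57.1, Obp73a from 3.31 to 57.1, Obp57e from 1.67 to 57.9 and Obp47b from 3.70 to 38.0. Each of these spans reaches below the control level, and absence of the transcript is not shown. Some were called in other settings, namely Obp47b and Obp85a with array weights (A2663/2 against BL15598) and Obp59a without BL15598 replicate 1 (nulls against wild types).

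As a description, the genes whose log2 signals followed those of the 4 leading members most closely over the 12 arrays were named among 9861 genes above the control level on all arrays. They share the arrays and the genotype differences, and no p is given. For Obp99b they were CG13427 (r = 0.982), CG30197 (r = 0.980) and peo (r = 0.977). For Obp56a they were CG14331 (r = 0.982), CG32073 (r = 0.982) and scb (r = 0.982). Obp46a was followed by Oatp33Ea (r = 0.990), Naa40 (r = 0.986) and CG3408 (r = 0.985), and Obp58c by lncRNA:CR40465 (r = 0.985), CG4712 (r = 0.985) and CG9917 (r = 0.976).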

How the data were processed

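The deposited intensity values of the probe sets are linear. The submitters' processing notes name Partek 6.5 and RMA, yet all arrays share a mean of 1500.03 once 2% is trimmed at each end, which RMA does not give, so their scaling is not known. Values were put on a log2 scale without an offset or another normalization. A model of 4 genotype means over all 12 arrays was fitted to the 18769 non-control probe sets (limma 3.58.1, R 4.3.3), two-sided, with Benjamini-Hochberg adjustment, and tested on simulated data. Folds are ratios of geometric means. "At least" sets the dimmer side at the control level of 20.4. The number of arrays limits the precision.

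All 47 symbols matched RefSeq (Release 6 plus ISO1 MT), used only for names and gene order, since the files name no build. Obp19a, Obp19c and Obp59a had a second, dimmer probe set, not called in any comparison. Values of every array are given for members called in a comparison and above the control level in a genotype, or above it on all arrays. Others have their range, except Obp51a, named in full after its values were seen. Members and lists were chosen with earlier results of these data known. Alternatives were other scalings, a floor, an offset, a filter on dim probe sets, other priors and weights, a replicate block, each pair alone, and arrays left out.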

Additional observations from a re-analysis of the deposited data

Results flagged for a closer look

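For 6 members the effect of A2663/2 against BL15598 and that of 2/v against Canton S differed by the interaction test in limma, given as the effect of 2/v minus the effect of A2663/2. The differences were -2.47 log2 for Obp46a (adjusted p = 0.00212), -4.98 for Obp57a (adjusted p = 5.02e-04), -1.42 for Obp57c (adjusted p = 0.00826) and -2.64 for Obp58c (adjusted p = 5.68e-05). They were 1.75 for Obp56d (adjusted p = 6.66e-04) and 1.54 for Obp56i (adjusted p = 0.00289). In all 6, BL15598 and Canton S also differed, and Obp58c alone was also called between the nulls. The difference is the sum of 2/v minus A2663/2 and BL15598 minus Canton S, in log2. For Obp57a these terms were 0.24 and -5.22, for Obp46a 0.16 and -2.63, for Obp56d -0.29 and 2.04, for Obp56i 0.13 and 1.41 and for Obp57c 0.04 and -1.45, so the term of the wild types was the larger in these 5. For Obp58c the terms were -2.06 and -0.58, with that of the nulls the larger. The size for Obp57a rests on BL15598 arrays around the control level, and was -4.61 with signals floored at that level and -3.90 with an offset of 20. The difference of Obp57c did not pass with a trended and robust prior (adjusted p = 0.156).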

How the results depend on the processing

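Of the log2 changes recomputed under an alternative, 1977 kept their direction and side of the threshold, 209 lost their call, 5 gained one and 11 changed sign. The count nulls against wild types was 10 with genotype ignored, and 15 to 18 without single arrays. Leaving out single arrays gave 3 to 4 calls in all 4 pairings, 8 to 11 for A2663/2 against BL15598, 6 to 11 for 2/v against Canton S, 8 to 12 for BL15598 against Canton S, 1 to 1 for 2/v against A2663/2 and 6 to 7 for the interaction. BL15598 against Canton S had 6 on its own arrays. With the stricter control level 19 members were above on all arrays. The lowest 2/v against Canton S count came without 2/v replicate 2. Nulls against wild types, Obp56g and Obp93a were not called with centring, Obp56g and Obp57b not with quantile normalization, and Obp50d was called lower with either.

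The values that changed sign belong to 3 members near 0. Obp50a was -0.11 with centring, -0.086 with quantile normalization, -0.021 with array weights and -0.0504 to 0.124 without single arrays. Obp69a was 0.0016 with array weights and -0.164 to 0.0245 without single arrays. Obp83cd was -0.0379 with centring, -0.0352 with quantile normalization and -0.14 to 0.385 without single arrays. For each of these the cause was not tested.

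Replicates numbered alike varied together little, with correlations of their deviations of -0.037 to 0.0935 (median 0.0171) over 18 pairs. Over 36 pairs numbered differently they were -0.1 to 0.0604 (median -0.0125), so the numbers are not taken as pairs. With the replicate block 17 genes were called nulls against wild types, 4 in all 4 pairings, 9 for A2663/2 against BL15598, 9 for 2/v against Canton S and 11 for BL15598 against Canton S. Dim probe sets vary most between arrays, which limits calls for the members near the control level.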

Other observations

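Some family genes fall outside the rule. A bright probe set shared by Obp50b and Obp50c gave 6023, 6393 and 5954 in A2663/2 testes and 5959, 6919 and 7494 in 2/v testes, against 6935, 7067 and 8430.0 in BL15598 testes and 6592, 6834 and 7738 in Canton S testes, and a second one of the same 2 genes ran from 575 to 1545. Neither was called nulls against wild types (limma; adjusted p = 0.272 and 0.797). The 2 probe sets shared by Obp57d and Cpr57A were dim, above the control level on 1 and 9 of 12 arrays. The gene lush, whose protein carries the pheromone vaccenyl acetate in trichoid sensilla, ran from 16.9 to 88.7 and was not called (adjusted p = 0.871).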
